A study of Mus musculus with 2 samples.

Results

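The 10 miRNA genes below, known from maturing neurons, synapses and oligodendrocytes, were examined in the forebrain of mouse embryos at embryonic day 11.5. They are Mir128-1, Mir128-2, Mir132, Mir212, Mir138-1, Mir138-2, Mir129-1, Mir129-2, Mir219a-1 and Mir219a-2. They were chosen for what is known of these miRNAs, and were found among the 1973 gene rows of the deposited tables by their Ensembl identifiers, so that 10 of 10 had a row. The series holds 1 group of 2 microRNA-seq libraries from B6NCrl forebrain, with tissue of 109 embryos of both sexes pooled for replicate 1 and of 88 for replicate 2, and no control or treated group. Both pools carry the same donor entry, so the spread between the libraries may be partly technical. The sense counts of all miRNA genes summed to 1281201 in replicate 1 and 1297647 in replicate 2. Levels are counts on the strand of the gene, scaled to a total of 1000000 (CPM), and values given with ± are the mean and SD of the 2 libraries.

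miRNAs are cut from hairpins in longer transcripts, and either arm of a hairpin, or both, can become a mature RNA. A mature miRNA pairs with messenger RNAs mainly through its seed, near its 5′ end, and lowers their output. At embryonic day 11.5 the forebrain consists largely of dividing progenitors with the first neurons at their outer edge, and oligodendrocytes form later. miR-128 is known as a brain-enriched miRNA that dampens the excitability of neurons, miR-132 and miR-212 as miRNAs induced by CREB that promote dendrite growth, miR-138 as a miRNA of dendrites that limits the size of spines in rat neurons, miR-129 as a miRNA of synaptic scaling in rat neurons, and miR-219 as a miRNA that drives oligodendrocyte precursors to differentiate.

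Mature sequences were taken from RefSeq on GRCm38.p6, which held all 10 hairpins and 14 distinct mature sequences for them. The following 6 are shown because the first 4 are each encoded by a pair of the genes, and the last 2 share a seed. Capitals mark the seed, bases 2 to 8 from the 5′ end.
miR-128-3p: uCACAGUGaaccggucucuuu
miR-138-5p: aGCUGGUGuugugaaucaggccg
miR-129-5p: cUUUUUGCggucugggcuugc
miR-219a-5p: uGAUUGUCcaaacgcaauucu
miR-132-3p: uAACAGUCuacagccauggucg
miR-212-3p: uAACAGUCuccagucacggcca
Counting positions from 1 at the 5′ end and giving the base of miR-132-3p first, these last sequences differ by A10C, C14U, U17C, U20C and G22A, all outside the seed. No other mature miRNA in the RefSeq table has that seed.

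The shared arms limit what the tables can show. Reads that map to several places are listed apart from the genes, 1165381 reads or 41.7% of the mapped reads in replicate 1 and 1001079 reads or 39.1% in replicate 2, and were left out of the gene counts. Mapped reads were taken as these, the reads at no gene and the counts of both strands at genes, without reads listed as ambiguous. A read of exactly the mature miR-128-3p, miR-138-5p, miR-129-5p or miR-219a-5p fits both genes that encode it. The counts of 8 of the 10 genes are therefore lower limits by an unknown amount, and rest on reads of the arm that differs or on reads that run into bases that differ. Mir132 and Mir212 have no arm in common with another gene and share no stretch of 18 bases with another hairpin in the table. Which arm a counted read came from is not in the tables. Unequal loss of reads can shift a ratio between 2 copies in either direction. The size of such a shift was not tested.

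All 10 genes were detected at 2 CPM or more in both libraries, against 424 of all 1973 gene rows, or 21.5%. Their sum was 2160 CPM in replicate 1 and 1879 CPM in replicate 2, or 0.216% and 0.188% of the counts. Their median was 126 CPM in replicate 1 and 121 CPM in replicate 2, beside 147 and 134 CPM for the 424 detected genes, and 3 of the 10 stood above the median of the detected genes. Mir219a-1 took 57.0% of their summed CPM in replicate 1 and 56.2% in replicate 2.

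**Figure D1:**
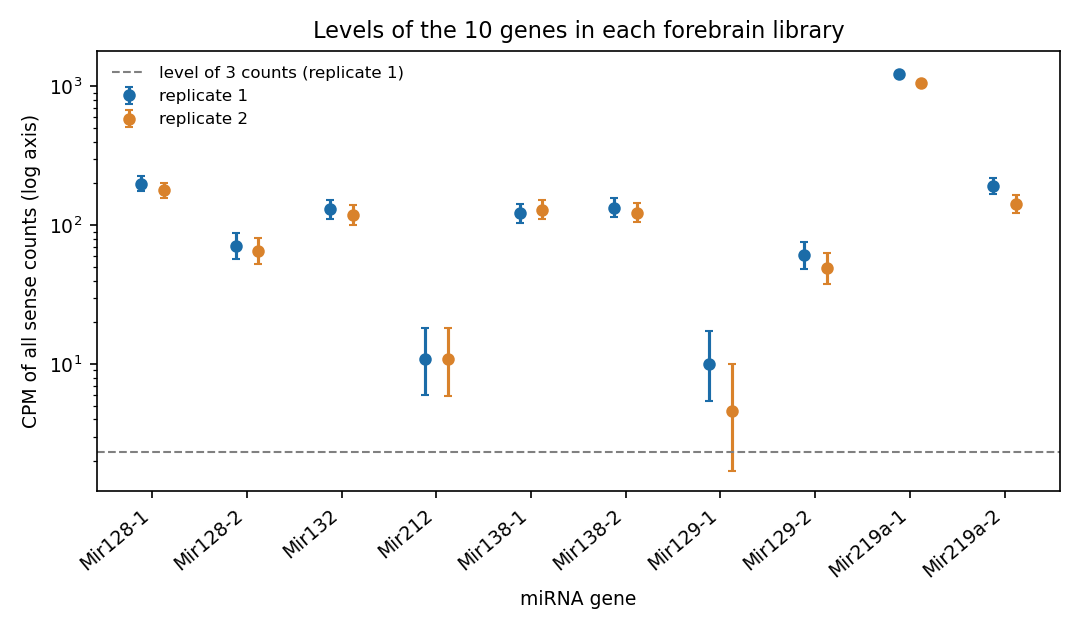
Level of each gene in CPM on a log axis, in replicate 1 and replicate 2, with 95% exact Poisson intervals that cover counting error only and the level of 3 counts (2.34 CPM in replicate 1) as a dashed line. Mir219a-1 stands above the other 9 genes in both libraries, and Mir212 and Mir129-1 stand lowest.

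In the order of mean CPM, Mir219a-1 came first with 1143 ± 125 CPM, and its lower library, at 1055 CPM, lay above the highest value of any other member, 199 CPM. Mir128-1 and Mir219a-2 followed with 189 ± 14.3 and 167 ± 33.9 CPM, and their ranges overlapped. Mir138-2, Mir138-1 and Mir132 came next with 129 ± 7.74, 126 ± 5.45 and 124 ± 7.70 CPM, and the ranges of neighbours in this trio overlapped too. Mir128-2 at 68.3 ± 3.91 CPM and Mir129-2 at 55.1 ± 8.17 CPM did not overlap, though 65.5 CPM in the lower library of the one and 60.9 CPM in the higher library of the other are close. Mir212, at 10.9 ± 0.0979 CPM, and Mir129-1, at 7.39 ± 3.91 CPM, stood last, and their Poisson intervals overlapped, at 5.97 to 18.3 CPM and 5.40 to 17.4 CPM in replicate 1. Their ranks among the 1973 gene rows ran from 106 for Mir219a-1 to 349 for Mir129-1.

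**Figure D2:**
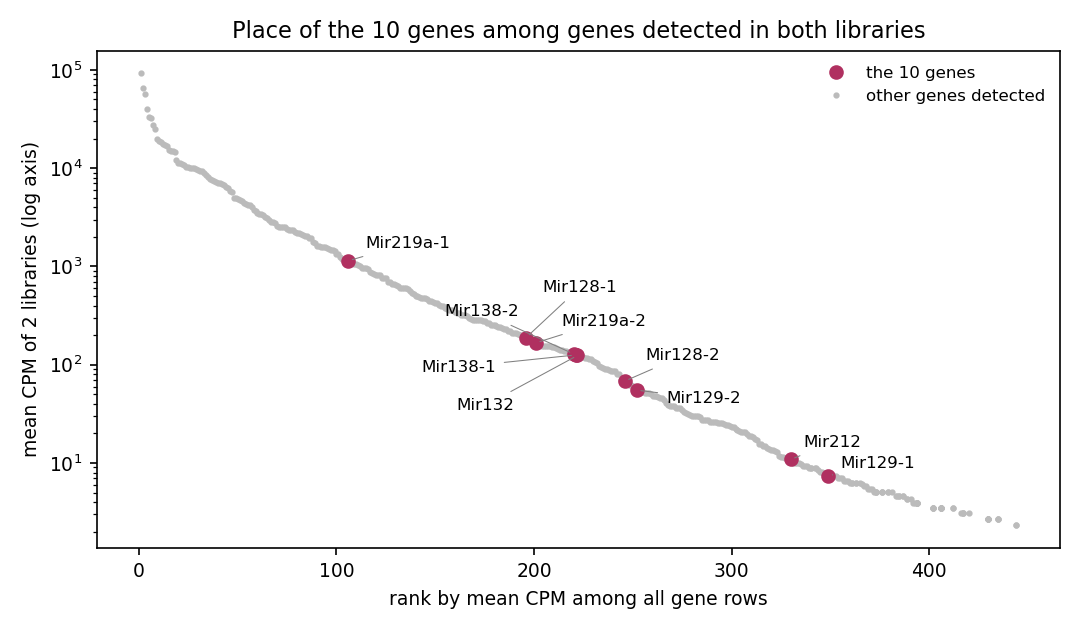
Mean CPM of the 2 libraries on a log axis against rank among all gene rows, for genes with 2 CPM or more in both libraries. The 10 genes spread along the curve from rank 106 to rank 349, with 5 of them between ranks 196 and 222.

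miR-128 is encoded inside 2 protein-coding genes. Mir128-1 (ENSMUSG00000065520) lies on chromosome 1 from 128202361 to 128202430 of mm10, plus strand, in an intron of R3hdm1. Mir128-2 (ENSMUSG00000065441) lies on chromosome 9 from 112118636 to 112118711, minus strand, in an intron of Arpp21, a gene of neurons that codes for an RNA-binding protein. Both hairpins are on the strand of their host. No host gene of the 10 has a row in these miRNA tables, so host levels were not analysed here. Mir128-1 had 255 counts in replicate 1 and 232 in replicate 2, or 199 and 179 CPM. Mir128-2 had 91 and 85 counts, or 71.0 and 65.5 CPM. The copy in R3hdm1 was the higher in both libraries and the copies did not overlap. The log2 ratio of Mir128-1 over Mir128-2, with 0.5 counts added to each, was 1.48 in replicate 1 (95% exact Clopper-Pearson interval 1.14 to 1.85) and 1.44 in replicate 2 (1.08 to 1.82), a 2.76-fold difference in the mean. Such intervals cover counting error only, as PCR copies of 1 molecule are counted more than 1 time, and 2 libraries allow no test over samples. The hairpins share a run of 23 bases that holds miR-128-3p, with 2 shared bases before the arm and 0 after it. Their other arms, shown because they tell the copies apart, have the same seed in capitals and differ at base 1 and after the seed.
miR-128-1-5p: cGGGGCCGuagcacugucuga
miR-128-2-5p: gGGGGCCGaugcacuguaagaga

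Mir132 and Mir212 are the pair of genes that share no mature sequence. Both lie on the plus strand of chromosome 11 in an intron of the noncoding transcript 1700016P03Rik, Mir212 (ENSMUSG00000065590) from 75173388 to 75173478 and Mir132 (ENSMUSG00000065537) from 75173682 to 75173747, with 203 bases between them. Mir212 had 14 counts in each library, or 10.9 CPM in replicate 1 and 10.8 CPM in replicate 2. Mir132 had 166 and 154 counts, or 130 and 119 CPM. The gene with the lower level was the same in both libraries. Mir212 over Mir132 had a log2 ratio of -3.52 in replicate 1 (-4.47 to -2.78) and -3.41 in replicate 2 (-4.36 to -2.67), so that Mir132 had 11.5 and 10.7 times the counts of its neighbour, with the same 0.5 counts added. Of the 5 gene pairs, this had the largest ratio in the mean, and it is the pair for which no read of a mature arm fits both genes.

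miR-138 showed no such difference between its copies. Mir138-1 (ENSMUSG00000065414) lies on chromosome 9 from 122682876 to 122682974, plus strand, over an exon of the transcribed pseudogene Gm47135. Mir138-2 (ENSMUSG00000065512) lies on chromosome 8 from 94324311 to 94324381, plus strand, over an exon of the long noncoding RNA gene C78859. Mir138-1 had 156 and 168 counts in replicates 1 and 2, or 122 and 129 CPM. Mir138-2 had 172 and 160 counts, or 134 and 123 CPM. Mir138-2 was the higher copy in replicate 1 and Mir138-1 in replicate 2. For Mir138-1 over Mir138-2 the log2 ratio was -0.14 (-0.46 to 0.18) and 0.07 (-0.25 to 0.39), and a difference between the copies was not detectable at this depth. The hairpins are printed because they have the largest shared run after that of miR-129, 24 bases, in capitals, within sequences that align at 49.5% of columns.
Mir138-1: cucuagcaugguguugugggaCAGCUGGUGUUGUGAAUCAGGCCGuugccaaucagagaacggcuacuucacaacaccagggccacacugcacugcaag
Mir138-2: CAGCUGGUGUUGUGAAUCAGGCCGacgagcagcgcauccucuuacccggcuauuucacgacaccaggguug

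miR-129 had the lowest summed level of the families, 71.0 CPM in replicate 1 and 53.9 CPM in replicate 2. Mir129-1 (ENSMUSG00000065469) lies on chromosome 6 from 29022619 to 29022691, plus strand, over an exon of the long noncoding RNA gene Gm3294. Mir129-2 (ENSMUSG00000065511) lies on chromosome 2 from 94241364 to 94241453, minus strand, in an intron of Mir670hg. Mir129-1 had 13 counts in replicate 1 and 6 in replicate 2, or 10.1 and 4.62 CPM. Mir129-2 had 78 and 64 counts, or 60.9 and 49.3 CPM. The copies did not overlap, and Mir129-1 was the lower in both libraries. Mir129-1 over Mir129-2 had a log2 ratio of -2.54 (-3.56 to -1.73) in replicate 1 and -3.31 (-4.91 to -2.21) in replicate 2, which overlap within counting error. The run that holds miR-129-5p in both hairpins is the longest of the shared runs, at 26 bases, with 2 shared bases before the arm and 3 after it. The other arm of Mir129-2 in the RefSeq table is shown because it too is nearly shared. The hairpin of Mir129-1 holds its first 19 of 22 bases, so that a read ending within them also fits both genes.
miR-129-2-3p: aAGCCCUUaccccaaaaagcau
Mir670, another miRNA gene of the host Mir670hg on the same strand, more than 10 kb from Mir129-2, had 390 and 367 CPM in replicates 1 and 2. The log2 ratio of Mir129-2 over Mir670 was -2.68 in replicate 1 and -2.89 in replicate 2. Gm23630, listed in the same host, had 0 counts in both libraries. The counts of Mir129-1 and Mir129-2 are lower limits. The part of lost reads in the ratio of these copies, and in that of Mir129-2 to Mir670, was not tested.

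miR-219a, the oligodendrocyte miRNA, had the highest summed level of the 5 families, with 1423 CPM for replicate 1 and 1198 CPM for replicate 2. Mir219a-1 (ENSMUSG00000065555) lies on chromosome 17 from 34024983 to 34025092, minus strand, partly over an exon of the long noncoding RNA gene Gm26940 and between Ring1 and H2-Ke6. Mir219a-2 (ENSMUSG00000065485) lies on chromosome 2 from 29845631 to 29845727, minus strand, in no annotated host gene on its strand. Mir219a-1 had 1578 counts in replicate 1 and 1369 in replicate 2, or 1232 and 1055 CPM. Mir219a-2 had 245 and 186 counts, or 191 and 143 CPM. The copy on chromosome 17 was the higher in both libraries, without overlap. Mir219a-1 over Mir219a-2 had a log2 ratio of 2.68 (2.49 to 2.89) and 2.88 (2.66 to 3.11), a 6.87-fold difference in the mean. Both counts are lower limits, and RefSeq lists only the shared arm for Mir219a-2. The part of lost reads in this ratio was not tested. The hairpins are printed because they carry the largest level among the 10 genes. Capitals mark the run of 22 bases that both hold, which is miR-219a-5p with 1 shared base before it.
Mir219a-1: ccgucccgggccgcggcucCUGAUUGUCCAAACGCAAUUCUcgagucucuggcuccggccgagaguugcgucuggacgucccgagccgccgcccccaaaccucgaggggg
Mir219a-2: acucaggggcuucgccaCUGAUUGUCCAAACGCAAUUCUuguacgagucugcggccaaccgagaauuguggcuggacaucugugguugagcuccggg
The base after the arm differs between the copies. The other arm of Mir219a-1 in the RefSeq table is found in no other hairpin.
miR-219a-1-3p: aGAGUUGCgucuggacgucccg

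**Figure D3:**
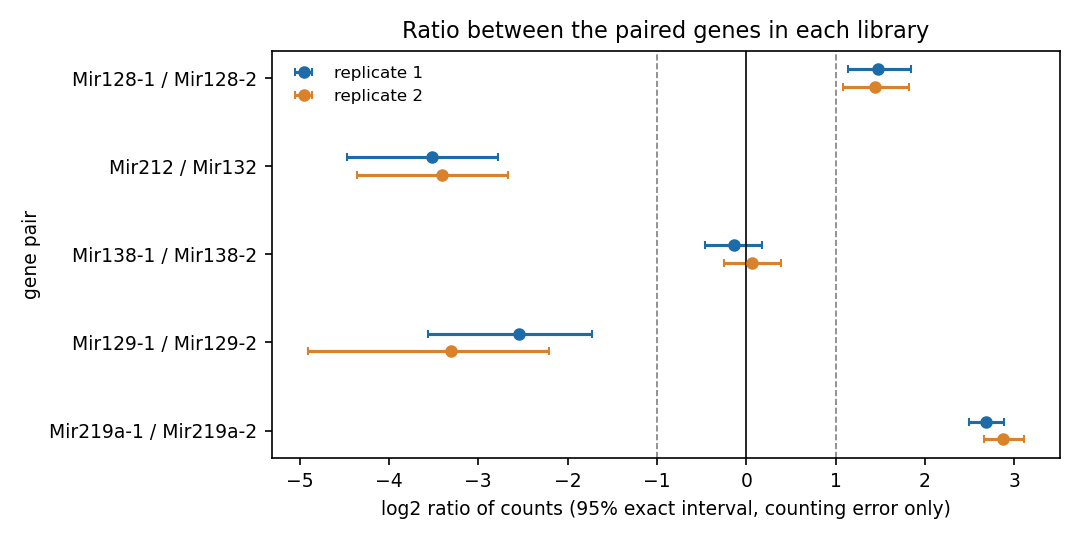
Log2 ratio of counts within each of the 5 gene pairs in replicate 1 and replicate 2, with 95% exact intervals for counting error only, a line at 0 and dashed lines at 2-fold. The pair of miR-138 lies across 0, and the other 4 pairs lie beyond 2-fold in both libraries.

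At 3 of the 10 genes another miRNA gene is annotated on the opposite strand, Mir219c at Mir219a-1, Mir219b at Mir219a-2 and Mir129b at Mir129-2, and none of these has a row in the tables. Counts on the opposite strand were 6 of 1584 at Mir219a-1 in replicate 1, or 0.379% (exact Clopper-Pearson interval 0.139 to 0.823%), and 4 of 1373 in replicate 2, or 0.291% (0.0794 to 0.744%). Where no count was found, the share allowed is given as 3 counts of the total. At Mir219a-2 the counts were 0 of 245 in replicate 1, which allows up to 1.22%, and 1 of 187 in replicate 2, or 0.535% (0.0135 to 2.94%). Mir129-2 had 0 of 78 and 0 of 64, which allows up to 3.85% and 4.69%. The other 7 genes also had 0 counts on the opposite strand in both libraries. For the genes with fewest counts this limits little, as 0 of 14 at Mir212 allows up to 21.4% in each library, and Mir129-1 allows up to 23.1% on 13 counts in replicate 1 and more on 6 counts in replicate 2. Over all gene rows, 96.4% of counts in replicate 1 and 96.8% in replicate 2 were on the annotated strand, so that the share opposite Mir219a-1 was below that of the whole table.

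Mature sequences could be compared only for the 858 of 1973 gene rows that were matched to RefSeq. Among these, 19 miRNAs with exactly 2 gene copies that share a mature sequence had 20 counts or more in all. Of these 19 pairs, 13, or 68.4%, differed by 2-fold or more in both libraries. Of the 4 such pairs among the 10 genes, 3 did so, a share close to that of the 19. The differences ran from a log2 ratio of 6.18 for Mir181b-2 over Mir181b-1 to 0.04 for Mir138-2 over Mir138-1 in the mean, with a median of 2.17 over all 19 pairs. Mir129-2 over Mir129-1 (2.93) and Mir219a-1 over Mir219a-2 (2.78) ranked seventh and eighth, and Mir128-1 over Mir128-2 (1.46) ranked twelfth. The pair of Mir181b was named after its values were seen. Among genes detected in both libraries and matched to a RefSeq mature sequence, the 47 with a mature sequence of another gene had a median of 116 CPM, and the 308 without one had a median of 192 CPM. The part of reads that fit several places in this difference was not tested.

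**Figure D4:**
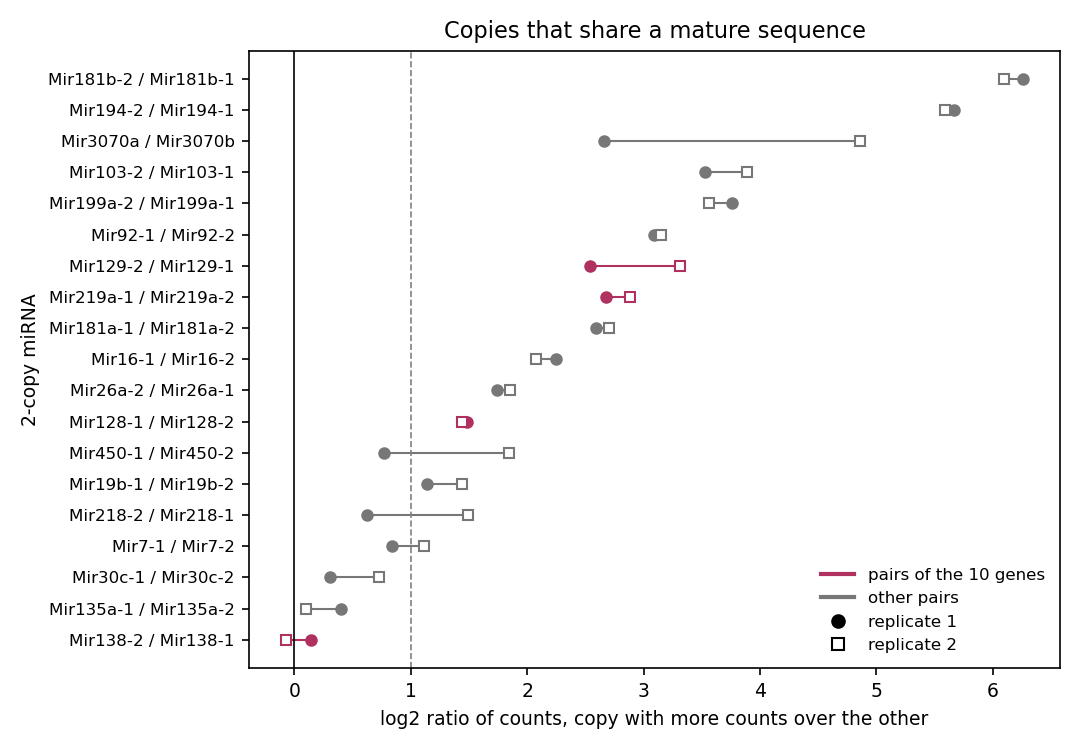
Log2 ratio of counts, the copy with more counts in the mean over the other, for the 19 miRNAs with 2 copies that share a mature sequence, in replicate 1 (filled circles) and replicate 2 (open squares). The 4 pairs among the 10 genes, in red, spread over the range, and the pair of Mir138 has the smallest ratio.

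The 10 genes had 2020 ± 199 CPM together, and 18 other genes with a row known from neuron differentiation and synapses had 11563 ± 267 CPM. The median was 125 CPM over the 10 genes, and 72.0 CPM over the 18 genes or 218 CPM over the 15 of them detected in both libraries. Mir139 led with 3185 ± 52.4 CPM, followed by Mir137 with 2536 ± 316 CPM, Mir134, a miRNA of dendritic spines, with 2040 ± 54.5 CPM and Mir153 with 1939 ± 64.8 CPM, each above all 10 genes in the mean. Of this list, at least 6 genes share a mature sequence with another gene, as 8 of the 10 genes do, and Mir9-1 had no row. The number 6 is a minimum, as only 858 of the 1973 gene rows were matched to a RefSeq mature sequence. The list also holds Mir124a-1, Mir124a-2 and Mir124a-3, which are by name copies of 1 miRNA. Mir338, which acts with miR-219 in oligodendrocyte differentiation, was at 158 and 153 CPM in replicates 1 and 2. It stood near Mir219a-2 and far below Mir219a-1. The other genes of the oligodendrocyte list were Mir23a with 7760 ± 575 CPM and Mir32 with 600 ± 20.2 CPM, both known from many tissues, and Mir219b had no row.

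The list of miRNAs known from dividing progenitors had a higher sum and median. Its 10 genes, led by Mir17 with 65099 ± 8463 CPM, Mir20a with 27745 ± 3763 CPM, Mir93 with 19797 ± 634 CPM and Mir106b with 18344 ± 929 CPM, had a median of 16222 CPM. Their levels ran over a wide range, and Mir25 with 1109 ± 70.9 CPM, Mir19a with 143 ± 20.6 CPM and Mir19b-1 with 45.8 ± 1.51 CPM were below Mir219a-1 in the mean. The ranges of Mir25 (1159 and 1059 CPM in replicates 1 and 2) and Mir219a-1 (1232 and 1055 CPM) overlapped. The log2 ratio of the summed CPM of the 10 maturation genes over that list was -6.25 in replicate 1 and -6.59 in replicate 2, so that the progenitor list had 76.1 and 96.5 times their summed CPM. The ratio is a description, since reads with several places are lost from 8 genes of the first list and from 2 of the second.

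The pools also held marker miRNAs of other tissues, whose part in the levels of the 10 genes was not tested. In replicates 1 and 2, the summed CPM was 34601 and 30323 for endothelium (Mir126a), 14710 and 13286 for 5 mesenchyme genes, 5148 and 5078 for 3 epithelium genes, 740 and 744 for 2 leukocyte genes, 606 and 371 for 3 blood genes, 210 and 84.0 for 6 Hox cluster genes and 46.8 and 23.9 for 4 striated muscle genes. Markers of forebrain and neural tissue summed to 21744 and 18512 CPM over 7 genes, each of which is also in the neuron or the progenitor list. Mir92b of the progenitor list gave 18428 and 15730 CPM of that sum, and the median of the 7 genes was 20.5 CPM. Most of these genes, Mir9-2, Mir9-3, Mir124a-1, Mir124a-2 and Mir124a-3, are by name copies of miR-9 or miR-124. Reads that fit several copies are not counted, so their levels, the sum and the median are lower limits. The marker sums are thus no measure of the share of each tissue. Of the muscle genes, Mir1a-1 and Mir133a-1 had no count, while Mir208a had 51 and 27 counts and Mir206 had 9 and 4 in replicates 1 and 2. Of the Hox cluster genes, Mir196a-1 had no count and the others had counts, led by Mir10a with 154 and 54. Reads that map to several places are not counted, so a count of 0 does not show that a miRNA was absent. Fewer cells of a type and less of a miRNA per cell cannot be told apart in such tissue.

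Between the libraries, a two-sided exact binomial test, Benjamini-Hochberg adjusted over the 398 genes with 10 counts or more, called 0 of the 10 genes at 2-fold and an adjusted p under 0.05, and called 11 of all tested genes or 2.76%. At an adjusted p under 0.05 with no minimum on the fold, and likewise at an unadjusted one, 2 of 10 were higher in replicate 1 and 0 lower, near the 20.6% of all tested genes that were higher. Mir219a-1 had a log2 ratio of replicate 1 over replicate 2 of 0.22, with an interval of 0.12 to 0.33 and an adjusted p of 1.68e-04 by the exact binomial test. Mir219a-2 had a ratio of 0.41, with an interval of 0.13 to 0.70 and an adjusted p of 0.0138 by the exact binomial test. Both copies were thus counted slightly higher in replicate 1, by less than 2-fold. The test compares the libraries with counting error alone. In the edgeR exact test with the common dispersion of the libraries, a coefficient of variation of 10.3%, both had an adjusted p of 1.00. That dispersion came from the same 2 libraries, so the difference tested is part of its own error. With TMM scaling Mir219a-2 had an adjusted p of 0.0516 in the exact binomial test. Over all alternatives the adjusted p ran from 1.30e-04 to 1.00 for Mir219a-1 and from 0.0109 to 1.00 for Mir219a-2, in the exact binomial and edgeR exact tests. Scaling also moved the split of calls over all genes, which was 82 higher and 31 lower in replicate 1 with library totals, 52 higher and 54 lower with TMM, and 61 higher and 49 lower with DESeq2 size factors. The median log2 ratio was 0.14 over the 10 genes and 0.07 over all tested genes. Mir129-1 had the largest ratio of the 10, 1.07, with an interval of -0.36 to 2.82 on 19 counts in all and an adjusted p of 0.260 in the exact binomial test.

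**Figure D5:**
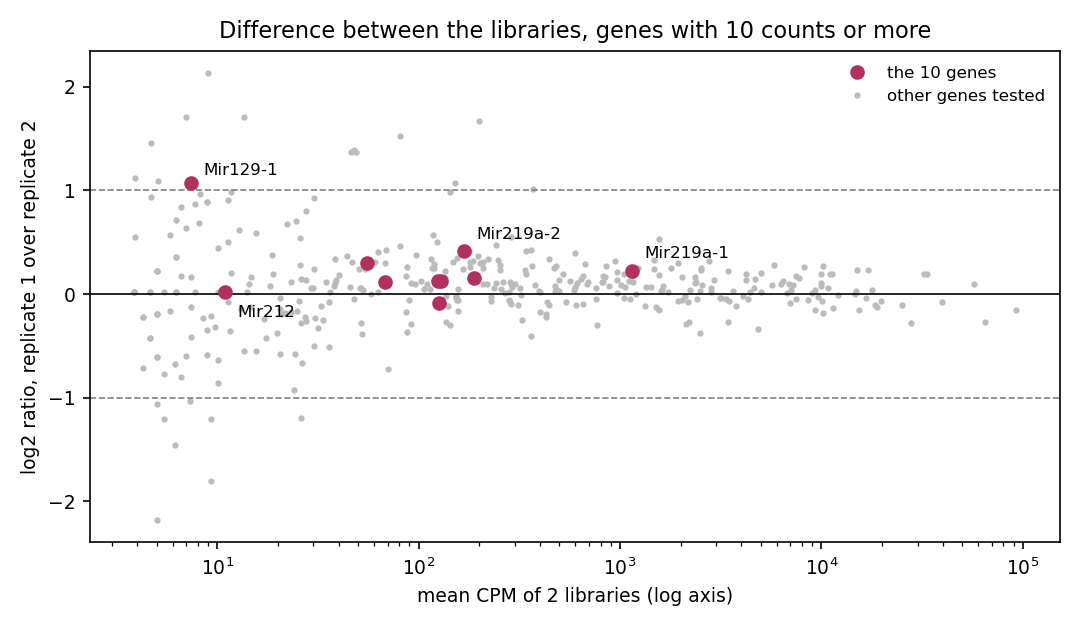
Log2 ratio of replicate 1 over replicate 2 against mean CPM on a log axis for the 398 genes with 10 counts or more, with dashed lines at 2-fold. Of the 10 genes, Mir129-1 lies past 2-fold, on 19 counts, and the other 9 lie between -0.09 and 0.41.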

How the data were processed

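MicroRNA-seq of 2 libraries from pooled forebrain was analysed. Per the labels and the deposited text files, reads were aligned to mm10 and counted per miRNA gene of GENCODE M4. Which aligner and counter were used is not given in the sources used here. Raw counts were deposited by the authors in 3 columns, for both strands, the strand of the gene and the opposite strand, where sense plus opposite equalled the unstranded value for all 1973 genes. The 4 summary rows (unmapped, multimapping, no feature, ambiguous) were kept out of the totals of CPM. The number of mapped reads was the multimapping, no feature and unstranded gene counts together, without the ambiguous row. The sense counts summed to 1281201 and 1297647, so that 3 counts are 2.34 and 2.31 CPM.

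Positions and hosts came from GENCODE M21 on GRCm38, the assembly mm10 names, and sequences from RefSeq. With 1 group, no contrast for a quasi-likelihood fit exists. Libraries were compared gene by gene across all genes with an exact binomial test, which was tested on simulated data. The simulated counts had counting error only, so they could not show how the test fares with further spread between libraries. Versions were R 4.3.3, edgeR 4.0.16, DESeq2 1.42.0, Python 3.11.15 and scipy 1.17.1. Named were the 10 genes, miRNA genes within 10 kb on the same or the opposite strand, hosts, and Ring1 and H2-Ke6 beside Mir219a-1. Also named were up to 4 genes of each of 3 lists by mean CPM, besides marker genes. Other genes within 10 kb were not named. Mir670, Gm23630, Mir181b-1, Mir181b-2, Mir19a, Mir19b-1 and Mir25 were named after their values were seen, and the count of 2-copy pairs was also chosen then. Members, lists and tests were chosen with earlier results of these data known.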

Additional observations from a re-analysis of the deposited data

Results flagged for a closer look

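Counts on the strand opposite to Mir219a-1, outside the sense counts used for the levels, stood above the 3 counts that a count of 0 allows, with 6 in replicate 1 and 4 in replicate 2, or 0.379% and 0.291% of the counts there. Over all gene rows the opposite strand held a larger share, as 96.4% and 96.8% of counts were on the annotated strand. Mir219c is annotated at that place on that strand and has no row, and the source of these reads was not tested.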

How the results depend on the processing

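Of 236 recomputed values of 37 results, 187 were classed as unchanged. They kept their side of the threshold, moved by less than the spread between the libraries or, for numbers of genes, stayed within a set fold. The 187 include levels and gene pair ratios without 1 library, which by construction cannot move by more than that spread. They also include exact binomial tests of single genes with 0.25 or 5 counts added, whose p does not depend on the added counts. The number 187 is therefore no measure of how firm the results are. The summed level of the 10 genes was 971 CPM with mapped reads as the total, which include reads with several places but not ambiguous reads. It was 3426 CPM with totals that leave out the 10 most abundant genes. Leaving out 1 library gave 1879 to 2160 CPM. With 5 counts added in place of 0.5, the mean log2 ratio of Mir128-1 over Mir128-2 was 1.42 against 1.46. That of Mir212 over Mir132 was -3.12 against -3.47. For Mir129-1 over Mir129-2 it was -2.43 against -2.93, within its wider spread between the libraries (SD 0.545). Mir138-1 over Mir138-2 had -0.03 against -0.04, and Mir219a-1 over Mir219a-2 had 2.75 against 2.78. The unstranded column and 0.25 counts moved the 5 gene pairs by less than the spread between the libraries. At 10 CPM or more, 9 of the 10 genes were detected. The edgeR exact test, whose common dispersion comes from the same libraries, called 7 genes at 2-fold and 8 without a minimum at the common dispersion (20 at an unadjusted p under 0.05), and 0 of each at a coefficient of variation of 0.2 (13 at an unadjusted p under 0.05), against 11 and 113 in the exact binomial test. Of the 10 genes it called 0 in both, and 0 had an unadjusted p under 0.05 at the common dispersion. TMM scaling left 1 of the 10 called. The ratio of Mir212 between libraries, 0.02, turned to -0.05 with TMM and -0.03 with DESeq2 size factors. No paired analysis was possible because the series has 1 group. Depth limits Mir212 and Mir129-1, with 28 and 19 counts in all.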
